A study of Mus musculus with 4 samples.

Results

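Nono encodes an RNA-binding protein of the cell nucleus, and its RNA was followed through the conversion of 2 mouse cell lines toward adipocytes. Nono is 1 of the 15 genes that the deposited scanner files name, each by the RefSeq mRNA accession of a probe printed in 20 spots per array. It was picked from these 15 for a day 4 signal below day 0 in one line that the other line did not share, so its changes between days and its line differences are given as a description, with no test. The 4 samples were 3T3-L1 at day 4 and at day 0 after induction of adipocyte differentiation, and C3H10T1/2 at the same days, with 1 array per group. 3T3-L1 is an established line of mouse preadipocytes, and C3H10T1/2 is an established fibroblast-like line of mouse embryonic mesenchymal cells that can take several fates. Day 0 cells of each line are taken here as the starting state. Their labels do not say whether they were collected before the inducing agents were added. The sources used here give neither the inducing agents nor the number of cultures behind an array. Total RNA was depleted of ribosomal RNA and copied from oligo(dT) and random primers along whole transcripts, and the copies were labelled with Cy3.

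NONO belongs to a small family of nuclear proteins, together with SFPQ and PSPC1, that pair with each other and bind RNA and DNA. Together with the long noncoding RNA Neat1 they form paraspeckles, nuclear bodies that hold back certain RNAs and proteins, and NONO also takes part in transcription, splicing and DNA repair. Adipocyte formation itself is driven by a cascade of transcription factors in which the C/EBP proteins and the nuclear receptor PPARG are central. Of a list of 19 paraspeckle genes, Nono alone had a probe with a name, so Neat1, Sfpq and Pspc1 were not analysed here. None of 10 adipocyte, 6 preadipocyte or fibroblast, 3 macrophage, 2 endothelial and 2 muscle markers had a named probe either, and the labelled state of the cells could not be checked against them.

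Nono lies on the X chromosome. RefSeq lists 4 transcripts for it, 2 of them curated and 2 predicted. The probe carries the accession of 1 curated mRNA, and which of the transcripts it reads was not tested. The start of the gene is shown because the motifs of adipogenic factors could be looked for there; the arrays measure RNA and do not read this stretch. The 159 bases that end just before the first annotated start of Nono, chrX:101429401-101429559 on the plus strand of GRCm38.p6 (RefSeq), have a GC content of 54.1% and read as follows, with a CCAAT match in capitals.
Nono upstream stretch: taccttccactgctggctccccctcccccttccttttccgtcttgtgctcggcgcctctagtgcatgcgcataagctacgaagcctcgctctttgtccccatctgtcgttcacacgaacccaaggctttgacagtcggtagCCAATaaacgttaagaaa
On both strands, 3 motifs were searched. CCAAT, a common promoter element, matched once, on the plus strand. Of 32851 RefSeq promoter windows cut to their first 159 bases, 21.3% held it at least once. TTGCNNAA, a form of the C/EBP motif, and AGGTCA, the core element of nuclear receptors such as PPARG, did not occur in the Nono stretch. They were held by 6.57% and 9.03% of the cut windows. The cut matched the length only, and the distance from each gene's annotated start was not matched.

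Signals were above background for 59.0% to 63.9% of 60900 probes on the 4 arrays, and no spot of these probes was saturated. All arrays were read in 1 scan, per the file headers. The 75th percentile of the processed intensity, by which arrays were scaled, ran from 321 to 388. Each group has 1 array, and this number sets the limit of precision. The errors below are SDs over the spots of 1 probe within these arrays and cover technical error only.

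All 20 Nono spots were well above background on each array. The median unprocessed Nono spot was 171 times its local background in 3T3-L1 at day 4 and 173 times at day 0. In C3H10T1/2 it was 116 times the background at day 4 and 174 times at day 0. The scanner software's own error was about 10% of the signal at each spot.

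As processed intensity before any scaling between arrays, Nono spots in 3T3-L1 ran from 4440 to 5162 at day 4 (median 4782, 19 spots) and from 4174 to 4899.5 at day 0 (median 4576, 18 spots). In C3H10T1/2 they ran from 3203 to 3572 at day 4 (median 3467, 18 spots) and from 4874 to 5332 at day 0 (median 5160.1, 19 spots). The C3H10T1/2 day 4 array was thus the low one, with every used spot below every used spot of the other arrays. Spots that the scanner software marked as outliers, 1 or 2 per array, were left out of these values. The most distant of them, 6016 in 3T3-L1 at day 0, lay above all used spots of that array.

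Scaled to the 75th percentile of its array, the log2 level of Nono was 3.75 ± 0.06 in 3T3-L1 at day 4 (SD, 19 spots) and 3.57 ± 0.07 at day 0 (18 spots). In C3H10T1/2 the log2 level was 3.24 ± 0.04 at day 4 (18 spots) and 4.00 ± 0.03 at day 0 (19 spots). From high to low, the order was C3H10T1/2 at day 0, 3T3-L1 at day 4, 3T3-L1 at day 0 and C3H10T1/2 at day 4. The spots of the 3T3-L1 arrays overlapped, with 2 day 0 spots above the lowest day 4 spot. The used spots of the other neighbours in this order did not overlap. The means of 3T3-L1 at day 4 and C3H10T1/2 at day 0 differed by 0.26, with a gap of 0.065 between their nearest spots. For C3H10T1/2 at day 4 and 3T3-L1 at day 0 the means differed by 0.33 and the gap was 0.13.

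**Figure D1:**
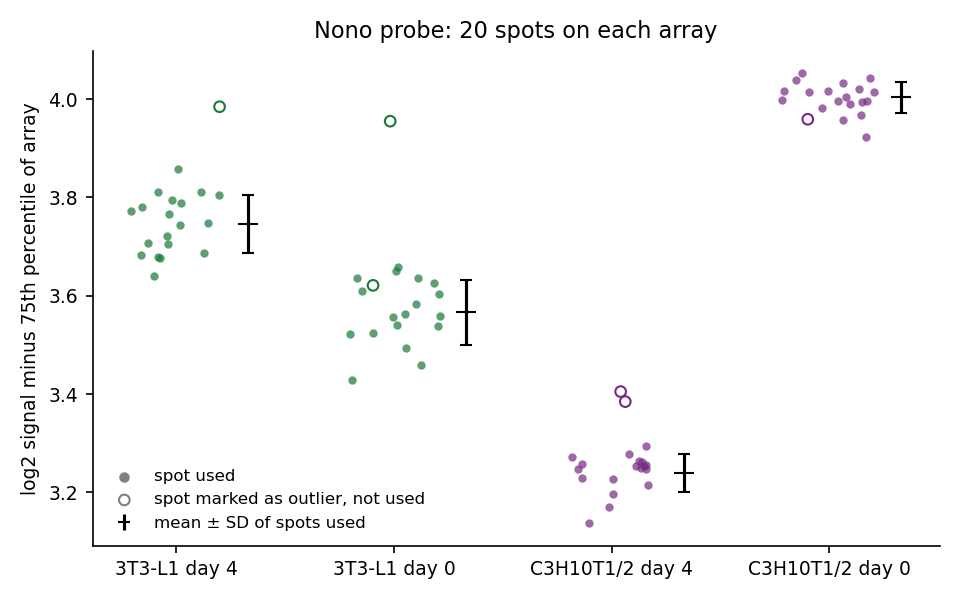
Log2 level of each of the 20 Nono spots on each array (vertical axis, relative to the 75th percentile of the array), with filled points for spots used, open points for spots marked as outliers, and black bars for the mean and SD of the used spots. The C3H10T1/2 day 4 spots lie lowest, at 3.24 ± 0.04, and the C3H10T1/2 day 0 spots highest, at 4.00 ± 0.03, with both 3T3-L1 arrays between them.

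The comparison of day 4 with day 0 asks which transcripts differ during adipocyte formation. In 3T3-L1, Nono was 1.13-fold higher at day 4 (log2 change 0.18 ± 0.05, SD over 18 spot pairs). Each of these 18 pairs, matched by position on the array, was above 0, and they ran from 0.09 to 0.27. With outlier spots kept, 19 of 20 pairs were above 0. Nono was thus within 1.2-fold of day 0, as were 31.3% of the 40237 probes above background on at least 1 3T3-L1 array; 20.3% of those probes were at least 1.5-fold lower. The small difference depended on the scaling: it was 0.06 without scaling, and probes as bright as Nono had a median change of 0.16 in the same pair of arrays.

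In C3H10T1/2, Nono was 1.70-fold lower at day 4 (log2 change -0.76 ± 0.04, SD over 18 spot pairs). All 18 pairs were below 0, from -0.85 to -0.70, and so were all 20 with the outlier spots. Without scaling, and with the E1A control probes as the scale, the log2 change was -0.58 and fell just short of 1.5-fold. In the values scaled to the 75th percentile Nono passed a threshold of 1.5-fold lower, as did 17.1% of the 38303 probes above background on at least 1 C3H10T1/2 array; since Nono was chosen on this contrast, nothing is read from that share. Bulk signals do not tell less RNA per cell from fewer cells that hold it.

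The response in 3T3-L1 minus the response in C3H10T1/2 was 0.94 ± 0.06 on the log2 scale (SD over 16 spots used on all arrays), a 1.92-fold difference between the day 4 to day 0 ratios. It was above 0 at all 20 spots, outliers included, and the lowest of the spots used was 0.85. The interaction has no residual with 1 array per group, so no test of it exists in this design. A response in 3T3-L1 at least 1.5-fold above that in C3H10T1/2 was found for 18.8% of 36949 probes above background in each line, and the opposite for 19.2%. Among the same probes, 3.42% were at least 1.5-fold lower in C3H10T1/2 and within 1.2-fold of day 0 in 3T3-L1, as Nono was. The mirror pattern, at least 1.5-fold lower in 3T3-L1 and within 1.2-fold in C3H10T1/2, was found for 4.70%.

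**Figure D2:**
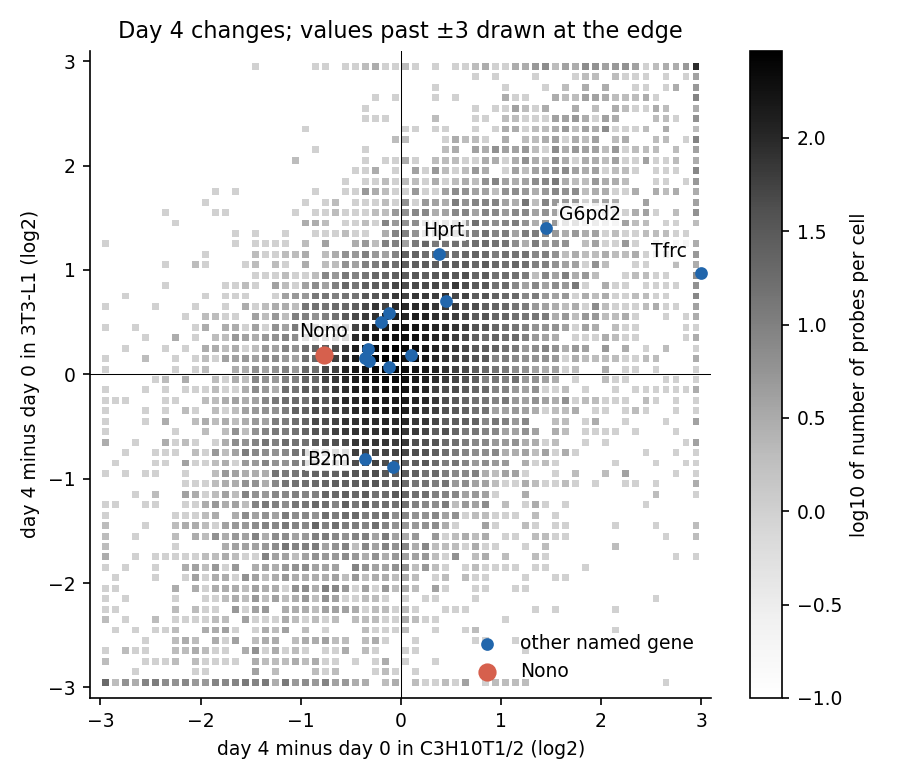
Day 4 minus day 0 log2 change in 3T3-L1 (vertical axis) and in C3H10T1/2 (horizontal axis), with grey squares for the number of probes above background on all 4 arrays (log10 scale), blue points for 13 other named genes and a red point for Nono. Nono lies at 0.18 in 3T3-L1 and -0.76 in C3H10T1/2, left of every other named gene, and within the cloud of probes.

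The comparison of the lines turned its sign between the days. At day 0, Nono was 1.35-fold lower in 3T3-L1 than in C3H10T1/2 (log2 difference -0.44 ± 0.05, SD over 17 spot pairs), and all 17 pairs were below 0. Without scaling the day 0 difference was -0.17. At day 4 it was 1.42-fold higher in 3T3-L1 (0.51 ± 0.06, SD over 17 spot pairs), with all 17 pairs above 0. On neither day did the used spots of the lines overlap. Neither difference reached 1.5-fold. At that threshold 15.5% of 39960 probes were lower in 3T3-L1 at day 0, and 16.1% of 38917 were higher there at day 4.

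Ratios of Nono to other genes on the same array do not depend on a scale factor for the array, and they were followed over 14 other named genes. In 3T3-L1 the Nono ratio was lower at day 4 against 7 genes and higher against 7, whereas in C3H10T1/2 it was lower against all 14. Some of the 3T3-L1 ratios barely moved. Among the higher, the log2 change was 1.4e-05 against Rpl13a, 0.03 against Ppia and 0.05 against Actb. Among the lower, it was -0.06 against Tbp. The median log2 change of the ratio was -0.03 in 3T3-L1 and -0.66 in C3H10T1/2. One of the 14, the lactate dehydrogenase gene Ldhal6b, was above background on 2 of the 4 arrays only. Without it the counts were 7 lower and 6 higher of 13 in 3T3-L1, and 13 lower of 13 in C3H10T1/2, with medians of -0.06 and -0.65.

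The genes that served as denominators moved as well. Over the 13 genes without Ldhal6b, the log2 change of the ratio in 3T3-L1 ran from -1.22 against G6pd2, which encodes a form of glucose-6-phosphate dehydrogenase, to 1.07 against Gusb, a lysosomal enzyme. The change was within 1.2-fold for 5 of the 13 genes in 3T3-L1 and for 0 of 13 in C3H10T1/2. In C3H10T1/2 it ran from -3.85 against Tfrc, the transferrin receptor, whose own signal was higher at day 4, to -0.41 against Ppia, a peptidyl-prolyl isomerase. Over all 14 genes, the ratio was at least 1.5-fold lower at day 4 against 3 and at least 1.5-fold higher against another 3 in 3T3-L1, whereas in C3H10T1/2 it was at least 1.5-fold lower against 9 and higher against 0. G6pd2 and Ppia have near-identical copies in the genome, so which copies their probes read is uncertain.

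For each of the 13 genes the ratio change was higher in 3T3-L1 than in C3H10T1/2, by 0.18 for Hprt up to 3.07 for Tfrc. Because the choice of Nono rested on its own response, these counts describe the choice and are no separate evidence for it. Among the 15 genes Nono had the highest response in 3T3-L1 minus that in C3H10T1/2 (0.94). Scalings that subtract a constant from each array shift all genes alike and cannot change this rank. Nono also had the highest difference with quantile normalization, normexp and the authors' deposited values. Since Nono was chosen for this response, its rank is no separate evidence either. With the scaling used here, 0.76 for the purine salvage enzyme gene Hprt came next, then 0.71 for the chaperone gene Hsp90ab1. Glycerol kinase, Gk, followed at 0.70. This order depended on the scaling. With normexp, Hsp90ab1 (0.80) was above Hprt (0.75), and Gk (0.48) was below another named gene, Tbp (0.51). Hprt and Gk are the other 2 X-linked genes among those with a name, and they are singled out here after their values were seen. Other X-linked probes are not counted here, so a link of this response to the X chromosome was not tested. Of the 14 other genes 9 had a difference above 0 and 5 below, but these counts depended on the scaling. They were 6 and 8 without scaling, and 7 and 7 with the authors' deposited values, normexp or quantile normalization. The share of all probes with a difference above 0 is not given here, so whether 9 of 14 is many was not tested.

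**Figure D3:**
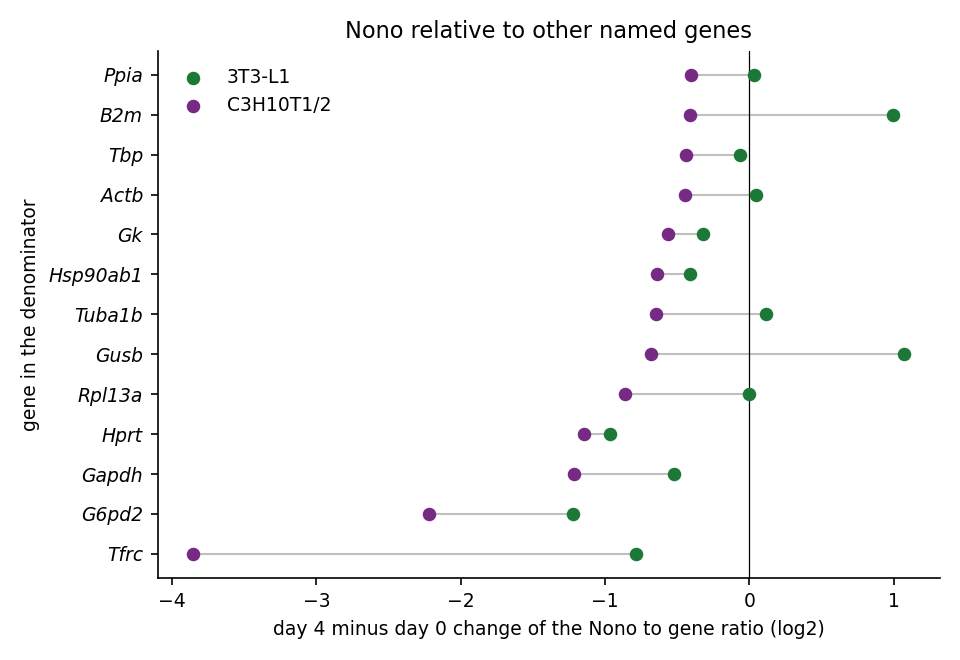
Day 4 minus day 0 change of the ratio of Nono to each of 13 named genes above background on all arrays (log2, horizontal axis), with 1 gene per row, green points for 3T3-L1 and purple points for C3H10T1/2. The purple points all lie below 0, from -3.85 to -0.41, and the green points lie on both sides of 0, from -1.22 to 1.07.

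Likeness to the Nono profile was measured over the 4 arrays as the root mean square difference between centred log2 levels, where 0 is an identical profile. Tbp, the TATA-binding protein of the general transcription machinery, was nearest (0.19). Its log2 levels were 1.52 and 1.28 in 3T3-L1 at days 4 and 0, and 0.99 and 1.32 in C3H10T1/2 at days 4 and 0. Like Nono, Tbp had its lowest level in C3H10T1/2 at day 4, and its day 4 change was above 0 in 3T3-L1 (0.24 ± 0.11) and below 0 in C3H10T1/2 (-0.33 ± 0.06, SD over spots). Tbp kept these directions under 6 other scalings. Those that subtract a constant from each array cannot change the likeness. Under those that can, quantile normalization, normexp and the authors' deposited values, Tbp stayed the nearest gene.

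Ppia (0.24) and Gk (0.26) followed Tbp in likeness. This order depended on the scaling: with the authors' deposited values, normexp or quantile normalization, the actin gene Actb came next after Tbp and before Ppia, and Gk was behind both. Ppia was higher by 0.15 ± 0.05 at day 4 in 3T3-L1 and had a change of -0.36 ± 0.04 in C3H10T1/2. The 3T3-L1 value of Ppia was below 0 under quantile normalization and against probes of like brightness (both -0.02), with normexp (-0.02) and with the authors' deposited values (-0.03). For Gk the changes were 0.50 ± 0.13 in 3T3-L1 and -0.20 ± 0.17 in C3H10T1/2. In all, 6 of the 14 other genes had a change above 0 in 3T3-L1 and below 0 in C3H10T1/2, and 3 to 5 had it under the 6 other scalings. The share of all probes with these opposite signs is not given here, so whether 6 is many was not tested. The number of these 14 genes at least 1.5-fold lower in C3H10T1/2 was 0 under each of the 7 scalings. With the scaling used here, 17.1% of the 38303 probes counted above for C3H10T1/2 were at least 1.5-fold lower. Whether 0 of 14 genes differs from that share was not tested. Tfrc was the least alike (1.39), with its lowest level where that of Nono was highest, in C3H10T1/2 at day 0. Of 32828 other probes above background on all 4 arrays, 239 (0.728%) lay within 0.1 of the Nono profile; the files pair them with no gene. Quantile normalization left 143 such probes, and normexp 99.

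The direction of the Nono change in C3H10T1/2 was the same, below 0, under each of 13 other ways of scaling or choosing spots, with log2 changes from -1.22 to -0.58. In 3T3-L1 the change was above 0 under 12 of the 13, from 0.01 to 0.20. With the median level of the other named genes as the scale it was below 0, at -0.39. That median is the mean of the middle pair of 14 genes, which in 3T3-L1 were Tfrc and Rpl13a, a ribosomal protein gene, and Tfrc was higher at day 4 by 0.97 itself. In C3H10T1/2, where this scale gave the -1.22, the pair was Actb and Rpl13a at day 0 and Hsp90ab1 and Actb at day 4. Tfrc, higher there by 3.09, lay below the middle at day 0 and above it at day 4. The median of the ratio changes to the single genes was -0.66 in that line. Relative to the median probe, the Nono change was 0.14 in 3T3-L1 and -0.72 in C3H10T1/2. Under quantile normalization these values were 0.01 and -0.85, and with the authors' deposited log2 values they were -0.01 and -0.84.

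**Figure D4:**
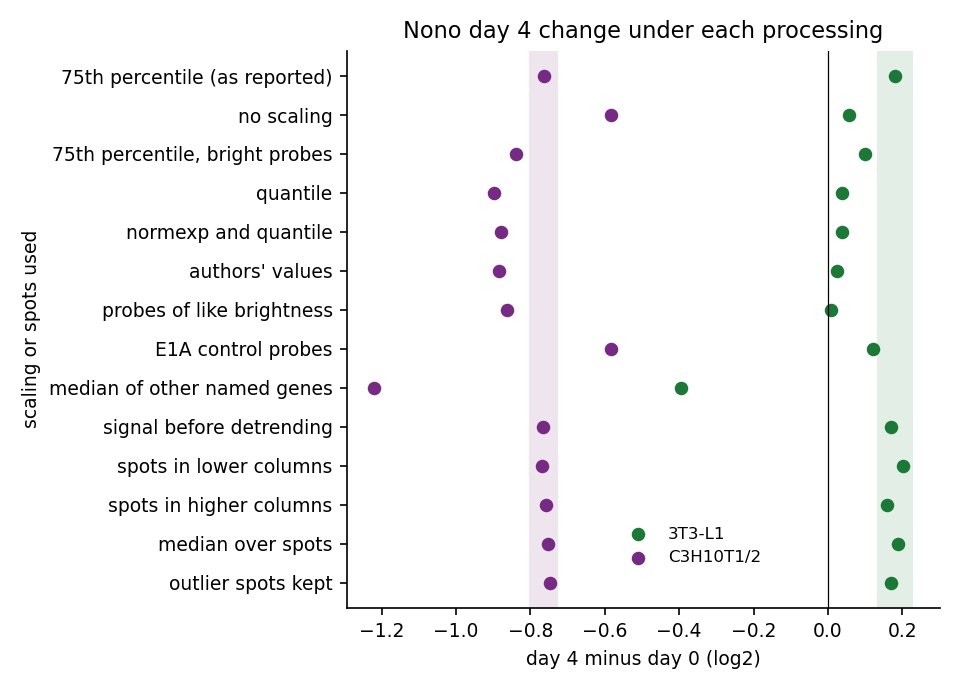
Log2 change of Nono from day 0 to day 4 (horizontal axis) under the scaling used here and 13 alternatives (rows), with green points for 3T3-L1, purple points for C3H10T1/2 and shaded bands for the main value ± its SD over spots. The purple points lie between -1.22 and -0.58, and the green points between 0.01 and 0.20 except for 1 at -0.39.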

How the data were processed

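RNA of 4 samples was measured on 4 one-colour Arraystar arrays. The deposited intensity values come from Agilent Feature Extraction 11.0.1.1, per the submitters' processing notes. They are background-subtracted and detrended within each array, without scaling between arrays, per the file headers. The authors also deposited a table of log2 values whose normalization is not given in the sources used here; it served as an alternative (lowest r with log2 intensity 0.99938, over 60804 probes). Here, spots of 1 probe were averaged as log2 intensity, without outlier spots, control probes and 15 nonuniform probes, and the 75th percentile of each array was subtracted. Named probes were matched to the RefSeq table of GRCm38 (15 of 15); the array design used mm9, so no coordinates are given for probes. For counts over probes, a probe below background on 1 array was set to at least the lowest signal above background there.

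No test was made: each group has 1 array, and Nono was chosen for its response. The members, lists and rules were chosen with earlier results of these data known. The rule named Nono, the 3 most and 1 least alike named genes, and the genes with the extreme ratio changes. Alternatives concerned the scaling, background correction, spots used and filter on dim probes. The background correction used limma 3.58.1 in R 4.3.3 with an offset of 50; other steps used Python 3.11.15, pandas 2.3.3 and matplotlib 3.10.9. Scaling and counting were tested on simulated data.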

Additional observations from a re-analysis of the deposited data

Results flagged for a closer look

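Nono moved in opposite directions in the lines in the values scaled to the 75th percentile, and this is the reason it is listed here. The response in 3T3-L1 minus the response in C3H10T1/2 was 0.944 on the log2 scale. With a single array for each line and day the difference was not tested, and Nono was chosen for it. The 3T3-L1 change of 0.18 ± 0.05 shrank below its spot SD under 4 alternatives, to 0.039 with quantile normalization, 0.036 with normexp, 0.024 with the authors' deposited values and 0.0073 against probes of like brightness.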

How the results depend on the processing

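No paired analysis was possible because the labels give no replicate numbers and the results come from no test. A fit of day with the cell line as a block was left out, since Nono was chosen on these contrasts. No array was left out, since each group has 1. Differences that moved by more than their SD over spots are listed first for the changes in 3T3-L1 and C3H10T1/2, in that order. They were 0.057 and -0.58 without scaling, 0.10 and -0.84 with the 75th percentile of probes above background on all arrays, 0.039 and -0.90 with quantile normalization, 0.036 and -0.88 with normexp, 0.024 and -0.89 with the authors' values, 0.12 and -0.58 with the E1A control probes, and -0.39 and -1.22 with the median of the other named genes. Against probes of like brightness, an alternative added after seeing the data, they were 0.0073 and -0.86. The response difference was 0.64 without scaling, 0.70 with E1A probes, 0.83 with the named genes and 0.87 with like brightness. The line difference at day 0 was -0.17, -0.31, -0.38 and -0.36 under the same settings and -0.37 with the authors' values; at day 4 it was 0.39 with E1A probes. Of 10 E1A control probes 2 were above background on all arrays, at intensities of at most 39.3 and 61.8, so this scale is weak. Probes at least 1.5-fold lower at day 4 numbered 5261 (13.1%) in 3T3-L1 and 4144 (10.8%) in C3H10T1/2 with normexp, against 8159 (20.3%) and 6562 (17.1%). Those lower in C3H10T1/2 and within 1.2-fold in 3T3-L1 numbered 2268 of 60900 (3.72%) without a filter, against 1263 of 36949 (3.42%). The share thus moved less than the count. The cause was not tested, except that removing the filter adds probes and also drops the floor set for dim probes. The other settings, among them the array columns, the median over spots and the signal before detrending (added later, as was keeping outlier spots), left the Nono differences within their SD over spots.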
